A study of Drosophila melanogaster with 2 samples.

Results

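The genes described here are 10 genes of differentiated Drosophila neurons, taken by name: elav, fne, Rbp9, cpo, nSyb, Syt1, Syx1A, brp, Fas2 and onecut. All 10 were found by symbol among 13945 protein-coding genes. They were examined for ChIP-seq summits of the transcription factor Fer1, tagged with GFP, inside each gene and within 5 kb of it. The series holds 1 group of 2 biological replicates of whole embryos of mixed sex, aged 6 to 24 h, from 1 transgenic line with GFP at the C-terminus of Fer1. Chromatin was sheared to 200 to 800 bp and recovered with an antibody against GFP. The labels call the line an insertion and do not describe its promoter. One label field names the antibody as Fer1, while the description names GFP. No second condition exists, so values are set beside those of all coding genes or all peaks, with no test between conditions. Gene expression was not measured, so the neuronal character of the genes comes from textbook knowledge. Embryos were used whole, and a signal from few cells with strong binding and one from many cells with weak binding cannot be told apart.

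Fer1 belongs to the helix-loop-helix transcription factors of the basic class, is related to mammalian PTF1A, and such proteins bind E-boxes (CANNTG). In the textbook account, pan-neuronal genes are switched on in nearly all neurons once they leave the cell cycle, whatever their later transmitter or position. The genes taken here are grouped under that name, but whether each is on in nearly all neurons of these embryos was not measured. They encode RNA-binding proteins that set neuronal splicing and 3' end choice, the SNARE and calcium-sensing machinery of vesicle release, the scaffold of the active zone, adhesion proteins of axons, and a transcription factor.

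The genes fell into 5 with Fer1-GFP peaks at their own promoters and 5 without. The authors kept 7329 peaks after a threshold on the irreproducible discovery rate (IDR), and these are called thresholded here. In that list elav, fne, cpo, Syx1A and Fas2 had a summit within 1 kb of an annotated transcription start site (TSS). Rbp9, nSyb, Syt1, brp and onecut had none there. Among all coding genes the share was 33.1%. In all, 32 thresholded summits lay in the 10 genes or within 5 kb, and 9 of the 10 genes had at least 1, against 58.8% of all coding genes. Long genes offer more sequence, and most of these genes are long. Among the 5 members of 20 kb or more (fne, cpo, Syt1, brp and Fas2), all 5 had a summit in the wider window and 3 had a promoter summit, against 73.9% and 49.8% of coding genes of that length. Among the 4 of 5 to 20 kb (elav, Rbp9, nSyb and onecut), 3 had a summit in the wider window and 1 had a promoter summit, against 70.1% and 48.0%. Syx1A, of 4164 bp, had both, as did 54.7% (wider window) and 28.0% (promoter) of coding genes under 5 kb. The members' promoter count was thus near the share of coding genes of their length.

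Which gene a summit belongs to was less clear than these counts. Of the 32 summits, 22 lay nearer to a TSS of the member than to any other coding TSS, and these came from elav (4), fne (4), cpo (7), Syx1A (5) and Fas2 (2). These are the same 5 genes that had promoter summits. The criteria are not independent, since all 11 summits within 1 kb of a member TSS were also nearest to that member. Across all coding genes, 28.8% had a summit in the window that was nearest to their own TSS. That share was not split by gene length, and most members are longer than most coding genes. The other 10 summits lay nearer to a neighbour, and 7 of them were within 200 bp of that neighbour's TSS. These 10 include every thresholded summit at Rbp9, nSyb, Syt1 and brp. Of the 32 summits, 18 (56.2%) were within 1 kb of some coding TSS, close to the 58.9% of all thresholded summits.

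**Figure D1:**
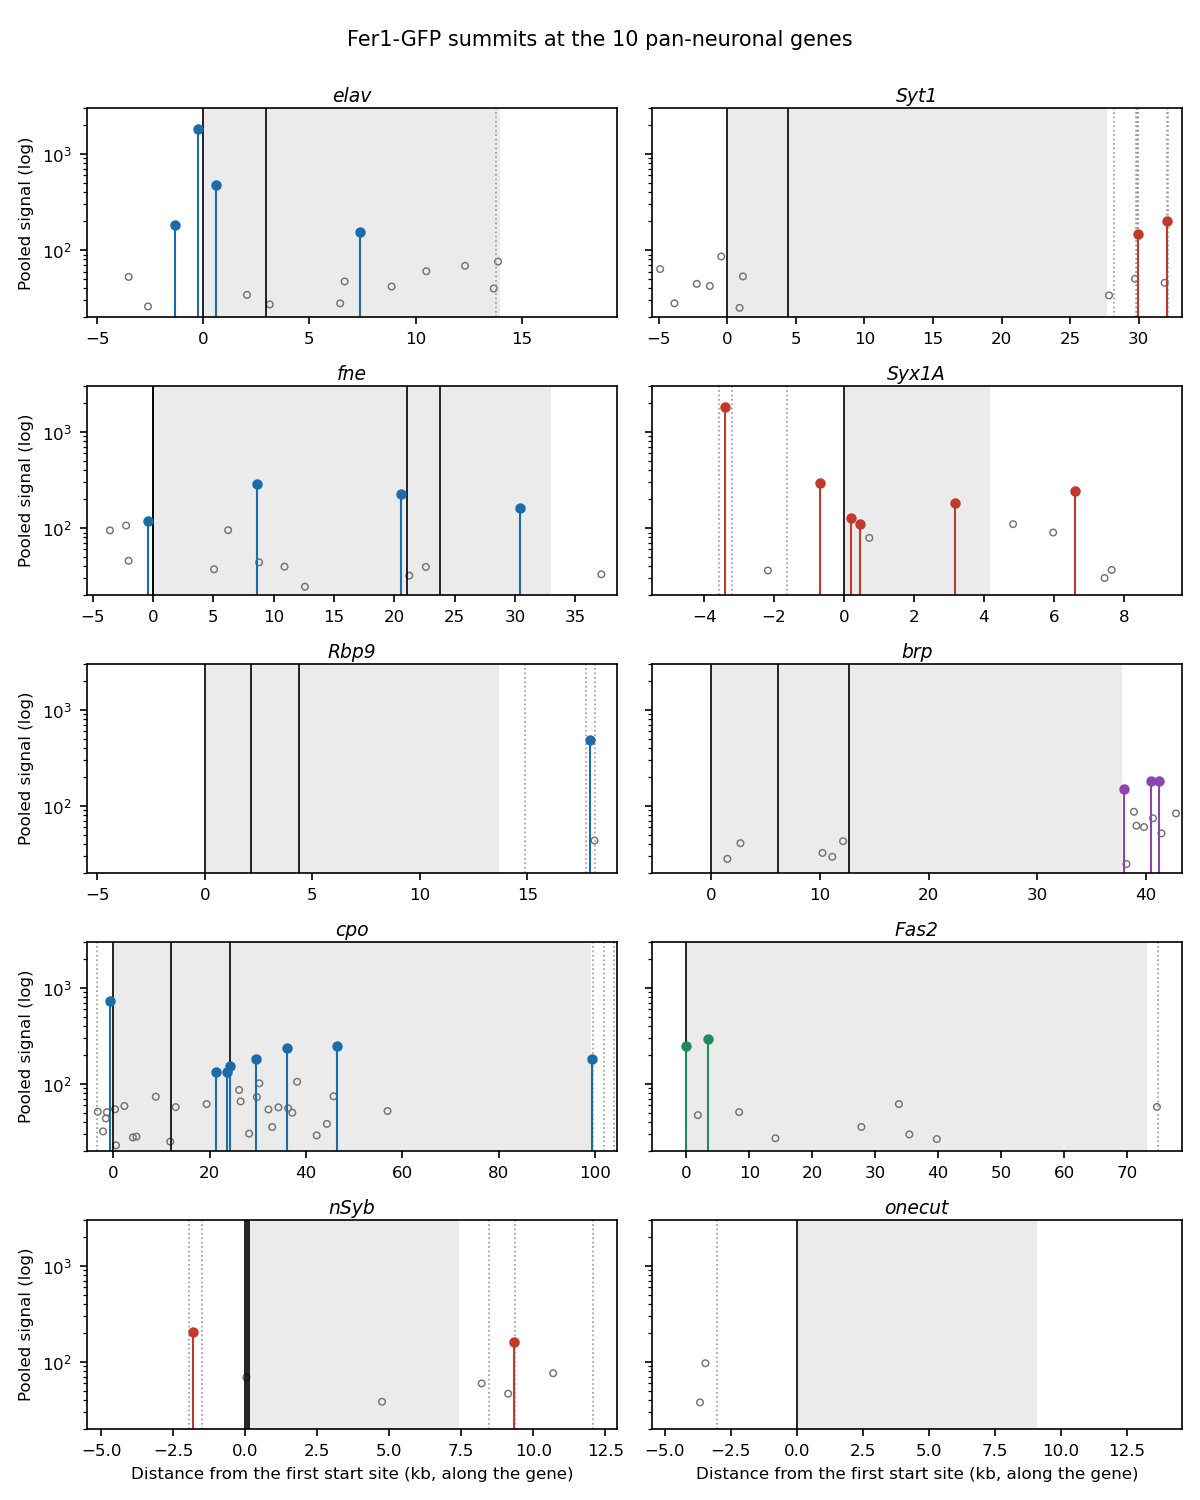
Summits at each of the 10 genes, by distance in kb along the gene from its first TSS (x axis) and by the authors' pooled signal on a log scale (y axis). Filled points with stems are thresholded summits, open circles weaker pooled peaks, the grey band the gene, black lines its TSSs and dotted lines TSSs of other coding genes. In elav, cpo and Syx1A the tall points stand at a start site, the tallest of Syx1A at that of a neighbour, and in Syt1, Rbp9 and brp all filled points lie past the gene's end.

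**Figure D2:**
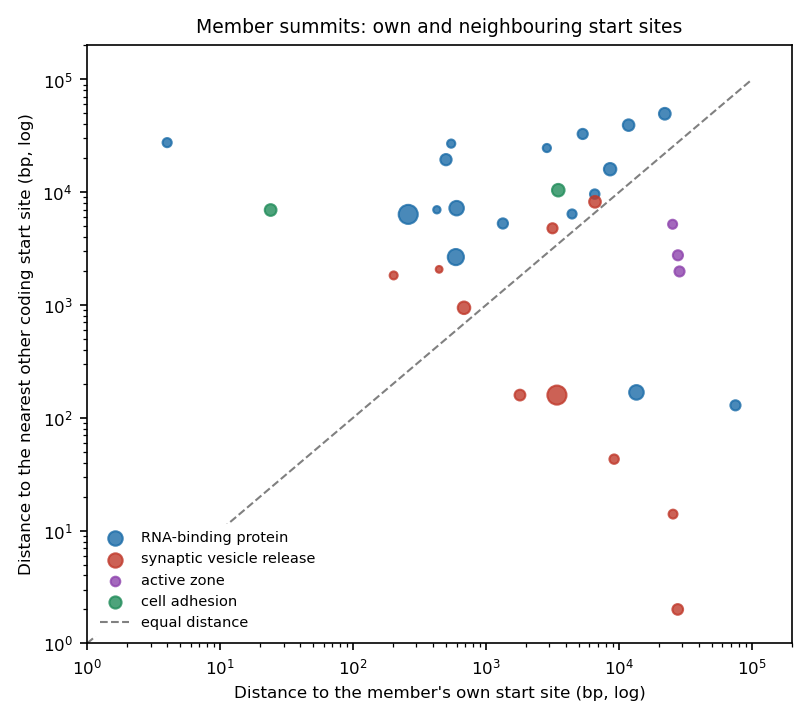
Each of the 32 thresholded summits by its distance to the member's own TSS (x axis, bp, log) and to the nearest TSS of another coding gene (y axis, bp, log), coloured by role and sized by signal. The 22 points above the dashed line are nearer to the member, and 7 of the 10 below it lie within 200 bp of a neighbour's TSS.

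The sequence around the strongest summits is shown first for the 5 genes with promoter peaks. Not all of these runs are at promoters. Those labelled intron at fne and Fas2 have summits 8575 and 3494 bp from the nearest own TSS. The promoter summits that held an E-box are not printed, at the first start of fne (CAAGTG) and in the 5' UTR of Syx1A (CACATG). Each run goes from 50 bp before to 50 bp past the summit, 5' to 3' on the plus strand of the Release 6 assembly (dm6). Capitals mark the motifs that were searched on both strands, which are the E-box CANNTG, the GAGA element GAGAG (reading CTCTC on the other strand) and TTTCCC, which reads GGGAAA on the other strand and belongs to the site of the mammalian PTF1 complex. Lower case means that none of them is there. The runs for Syx1A and for the internal start of fne were added after their values were seen, and summits inside UTRs are not printed.
elav, 260 bp upstream of its start, chrX:523436-523536: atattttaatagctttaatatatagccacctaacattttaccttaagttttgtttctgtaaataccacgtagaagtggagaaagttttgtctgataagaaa
elav, intron, chrX:522575-522675: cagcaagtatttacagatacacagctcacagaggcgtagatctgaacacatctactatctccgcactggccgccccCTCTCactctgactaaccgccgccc
cpo, 593 bp upstream of its first start, chr3R:17919189-17919289: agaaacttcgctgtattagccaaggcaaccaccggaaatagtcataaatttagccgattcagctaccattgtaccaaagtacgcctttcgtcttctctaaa
fne, intron, chrX:12926009-12926109: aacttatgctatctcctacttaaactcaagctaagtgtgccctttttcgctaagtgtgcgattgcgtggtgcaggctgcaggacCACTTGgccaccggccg
fne, 500 bp upstream of an internal start, chrX:12937967-12938067: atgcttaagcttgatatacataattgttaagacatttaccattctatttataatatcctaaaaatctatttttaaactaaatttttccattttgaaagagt
Syx1A, 683 bp upstream of its start, chr3R:24106396-24106496: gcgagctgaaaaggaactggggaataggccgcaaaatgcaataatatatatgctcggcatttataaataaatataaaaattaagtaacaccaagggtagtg
Fas2, intron, chrX:4202549-4202649: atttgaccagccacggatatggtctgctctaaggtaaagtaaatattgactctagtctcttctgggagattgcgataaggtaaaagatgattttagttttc

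A second set shows the strongest summits that lay at a neighbour's promoter, including the highest of all summits in these windows.
At CG18428, upstream of Syx1A, chr3R:24109127-24109227: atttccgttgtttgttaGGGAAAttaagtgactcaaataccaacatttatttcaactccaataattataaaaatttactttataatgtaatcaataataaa
Between Rrp1 and gammaTub23C, past the end of Rbp9, chr2L:2972626-2972726: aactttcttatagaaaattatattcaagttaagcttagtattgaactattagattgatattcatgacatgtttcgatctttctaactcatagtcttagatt
At Bgb, upstream of nSyb, chr3L:1639502-1639602: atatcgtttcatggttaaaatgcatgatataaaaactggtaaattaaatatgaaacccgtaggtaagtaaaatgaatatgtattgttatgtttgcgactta

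E-boxes were found at few of the strongest summits. The 8 strongest member summits ranked from 31 to 1782 in the thresholded list, and 1 of them held CANNTG within 50 bp, the intronic summit of fne with CACTTG starting at 12926093. Of all 1782 summits ranked as high, 35.1% held one. Over all 32 member summits the number was 11 (34.4%), against 37.8% of all thresholded summits, so E-boxes were about as frequent here as elsewhere. None of the 32 held 2 or more, against 8.46% of all. The form CAGCTG was found once, at the start of Taf10 near Syt1 (5.94% of all summits held it). CACCTG, in its reverse form CAGGTG, was also found once, at colt near Syt1 (2.85% of all). Each of the 3 summits past the end of brp held an E-box, which was CAATTG at 2 of them and CATGTG at the other. TTTCCC was near 2 of the 32 summits (6.25%, against 5.49% of all). GAGAG was near 8 (25%), in the windows of 7 of the genes, against 12.9% of all thresholded summits. Those at Syt1 and brp lay 2275 and 2633 bp past the gene's end, the first of them at the start of colt. The promoter element TATCGATA (the DRE, bound by DREF) was near 0 of 32 and near 1.80% of all. G and C made up 36.7% of the member windows on average and 36.9% of all windows. A motif match describes the sequence only, and none of these differences was tested.

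Among the RNA-binding protein genes, elav carried the highest promoter peak. The gene (FBgn0260400) encodes a nuclear protein that directs neuronal splicing and poly(A) site choice, and lies on the minus strand of chromosome X from 509235 to 523226. A summit at 523486, 260 bp upstream of the TSS used by 3 of its annotated transcripts, had a pooled signal of 1832 and ranked 32 of 7329. Its highest overlapping peak had a signal of 1092 in replicate 1 and 754 in replicate 2, and ranked 33 in each list. Ordered by the strongest promoter summit, elav was 35th of the 4615 coding genes that had one. A further summit 861 bp away, 601 bp inside the gene in an intron, had a signal of 472 (286 in replicate 1 and 186 in replicate 2). The remaining summits of elav were lower, at 1339 bp upstream (185, with 112 in replicate 1 and 80.7 in replicate 2) and in the 3' UTR at 515849 (153, with 85.7 in replicate 1 and 70.3 in replicate 2). Its internal TSS at 520285, which is that of 1 transcript, had no thresholded summit within 1 kb, and the highest pooled peak there had a signal of 34.3 and ranked 22200 of 30000.

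The elav paralogs differed from elav and from each other. fne (FBgn0086675, chromosome X, 12917477 to 12950417, plus strand), whose protein shares RNA targets with ELAV, had 4 summits, all nearest to its own TSSs. Its highest, at 12926059 in an intron 8575 bp from the nearest TSS, had a signal of 286, with 182 in replicate 1 and 110 in replicate 2. At the first TSS a summit 427 bp upstream had a signal of 118 (rank 6708), with 77.8 in replicate 1 (rank 6147) and 42.1 in replicate 2 (rank 8695). The internal TSS at 12938517, shared by 5 transcripts and 21040 bp downstream, had a higher one 500 bp upstream, with a signal of 225 (rank 2652), ranked 3185 in replicate 1 and 2266 in replicate 2. The promoter peak of fne thus ranked higher at the internal start than at the first one in both replicates. The last summit (163, with 91.8 in replicate 1 and 67.2 in replicate 2) lay in the 3' UTR, as did 1 each in elav and Syx1A. Of all thresholded summits, 1.83% lay in an annotated 3' UTR of any gene, and 3 of the 32 member summits lay in that of the member itself. These counts are not fully alike, and the length of the 3' UTRs was not taken into account.

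Rbp9, the other ELAV-family gene (FBgn0010263, chromosome 2L, 2954762 to 2968434), had no summit at any of its 3 TSSs in the thresholded list, the pooled list or replicate 1. Replicate 2 alone listed a peak near one, with a signal of 20 and rank 19421. The single thresholded summit of the window, at 2972676, had a signal of 484 (rank 717), with 304 in replicate 1 and 183 in replicate 2, and lay 4242 bp past the end of Rbp9. It was 168 bp from the TSS of Rrp1, which encodes a DNA repair endonuclease, and 215 bp from that of gammaTub23C, a gamma-tubulin gene. So of the 3 ELAV-family genes, elav and fne had promoter peaks, and the peak at Rbp9 was at the promoters of its neighbours.

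cpo had the most summits of the 10. It encodes the RNA-binding protein Couch potato of the nervous system and spans 99061 bp of chromosome 3R (FBgn0263995, 17919832 to 18018892, plus strand). The highest of its 8 summits lay 593 bp upstream of the first TSS, with a pooled signal of 736 (rank 337), 440 in replicate 1 (rank 334) and 301 in replicate 2 (rank 337). A second promoter, 24274 bp downstream and shared by 6 transcripts, had a summit 4 bp from its TSS with a signal of 153 (84.3 in replicate 1 and 70.8 in replicate 2) and another 547 bp upstream with 133 (86.5 in replicate 1 and 48.5 in replicate 2). The TSS between them, used by 4 transcripts, had no such summit, and its highest pooled peak ranked 14537 with a signal of 57.4. Farther in, 3 intronic summits between 5335 and 22109 bp past the second promoter had signals of 183, 238 and 247, and another lay 2868 bp before it (132). The eighth, 354 bp past the end of cpo, was 129 bp from the TSS of DNaseII. As many summits or more were found at 0.990% of coding genes. Per length, with 0.734 summits per 10 kb, cpo was in the middle of the coding genes, 50.1% of which had as high a density or higher.

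Of the 3 members that serve vesicle release, Syx1A had promoter summits in the thresholded list and nSyb and Syt1 had none. Syx1A encodes syntaxin, the SNARE of the presynaptic membrane (FBgn0013343, chromosome 3R, 24101600 to 24105763, minus strand). The gene is 4164 bp long, and 6 summits lay in it or within 5 kb, of which 5 were nearest to its own TSS. All 6 together gave 4.24 per 10 kb of window, a density that 0.918% of coding genes reached. Among those nearest to its own TSS the highest lay 683 bp upstream, with a pooled signal of 293 (rank 1721), 162 in replicate 1 and 129 in replicate 2. The TSS of CG10694 was 945 bp from it on the other side. In the 5' UTR, 202 and 444 bp from the TSS, 2 weaker summits had signals of 129 and 110. The second of these ranked 7328 of 7329, so it was the last peak but one in the list. For both, the highest overlapping peak of replicate 1 had a signal of 93.3 (rank 4743), and in replicate 2 they had 31.8 and 33.6 (ranks 12104 and 11411). The intervals of these summits overlap, and the same signal and rank mark a single replicate 1 peak that served both. Their signals in replicate 1 over replicate 2, 2.93 and 2.78, were the highest of the 32 and share that peak. Both thus ranked lower in replicate 2 than in replicate 1. Summits in the 3' UTR (181) and 2436 bp past the gene (246) completed the gene's own.

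The highest summit in any of the 10 windows, ranked 31 with a signal of 1833, lay 3414 bp upstream of Syx1A and 159 bp from the TSS of CG18428. It had 1047 in replicate 1 and 781 in replicate 2. Without it the highest summit of the Syx1A window is the one of 293 upstream of the gene.

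At nSyb and Syt1 every thresholded summit sat at the start of a neighbouring gene. nSyb encodes neuronal synaptobrevin, the SNARE of the vesicle (FBgn0013342, chromosome 3L, 1630348 to 1637752, minus strand). Its 2 summits were 159 bp from the TSS of Bgb, whose protein partners Runt-domain factors (signal 205, with 123 in replicate 1 and 81.5 in replicate 2), and 43 bp from that of CG13928 (160, with 100 in replicate 1 and 63.6 in replicate 2). At the start sites of nSyb itself the pooled list held 1 peak with a signal of 68.8 (rank 12268), with 47.1 in replicate 1 and 17.3 in replicate 2. Syt1 encodes synaptotagmin, the calcium sensor of release (FBgn0004242, chromosome 2L, 2772327 to 2799979, minus strand). Its 2 summits lay 2 bp from the TSS of Taf10, a subunit gene of the general factor TFIID (201, with 108 in replicate 1 and 92.3 in replicate 2), and 14 bp from that of colt, a mitochondrial carrier gene (148, with 100 in replicate 1 and 69.5 in replicate 2). Both are past the end of Syt1 and lay 27656 and 25492 bp from the nearest of its own TSSs. A weaker peak at -431 bp from the first Syt1 TSS had a pooled signal of 86.0 (rank 9724). It had 29.8 in replicate 1 (rank 17746) and 48.3 in replicate 2 (rank 7302).

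brp, which encodes the Bruchpilot scaffold of the active zone, had no thresholded summit in the gene. The gene (FBgn0259246) spans 37801 bp on arm 2R, from 9503765 to 9541565 on the plus strand. Its 3 summits lay 193, 2633 and 3409 bp past its end, with signals of 151, 181 and 180. They were 1984 to 5200 bp from the nearest coding TSS, that of CG1888, and were the only member summits nearer to a neighbour yet over 1 kb from its TSS. Replicate signals were 111, 81.6 and 118 in replicate 1, and 49.7, 92.5 and 76.8 in replicate 2, in the same order. The order of the 3 summits was thus not the same in both replicates. Within 1 kb of its 3 TSSs the pooled list held 1 peak, at the third, with a signal of 43.1 (rank 18598).

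Fas2, the adhesion protein of axon bundles related to NCAM (FBgn0000635, chromosome X, 4132887 to 4206093, minus strand), had a summit 24 bp inside its single TSS, in the 5' UTR. The summit had a pooled signal of 247 (rank 2279), 125 in replicate 1 and 127 in replicate 2. Another, 3494 bp into the gene in an intron, had 296, with 171 in replicate 1 and 130 in replicate 2. No other thresholded summit fell in its 73207 bp, so its density of 0.240 per 10 kb was below the 0.547 of the genome.

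onecut, a neuronal homeodomain gene of the small chromosome 4 (FBgn0028996, 598555 to 607649, minus strand), was the only member without a thresholded summit. On that chromosome 53.8% of 80 coding genes had one in the gene or within 5 kb, and the density of summits was 0.252 per 10 kb. The pooled list held 2 peaks in its window, with signals of 96.8 (rank 8533) and 37.9, both upstream and nearest to Eph, the Ephrin receptor gene. The upper one, 3463 bp upstream of onecut, was under the lowest thresholded signal of 110. In replicate 2 the closest peak to it, 3485 bp upstream, had a signal of 34.7 and ranked 10964. Another replicate 2 peak, 3271 bp upstream and also nearest to Eph, ranked 6485. None lay within 1 kb of its TSS in any list. With the pooled list all 10 genes had a peak in the wider window, against 72.3% of coding genes.

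Signals at the members differed little in strength from those elsewhere and agreed between replicates about as closely. The 32 summits had a median signal of 184, against 182 for all thresholded summits. Every one overlapped some peak of each replicate, and 28 ranked within the highest 7329 of both. The exceptions, fne at its first TSS, cpo 2868 bp before its second promoter and the 2 summits in the 5' UTR of Syx1A, ranked lower than that in replicate 2. Of the 32, 20 (62.5%) shared at least 50% of both intervals with a peak among the top 7329 in each replicate, against 54.1% of all thresholded peaks. The signal in replicate 1 was 1.45 times that in replicate 2 in the median (range 0.882 to 2.93), against 1.46 over 7292 thresholded peaks. Across the 32 summits the replicate signals had a Spearman correlation of 0.844, against 0.824 over all thresholded peaks, given as a description, since the points share a library and neighbouring summits are not independent.

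**Figure D3:**
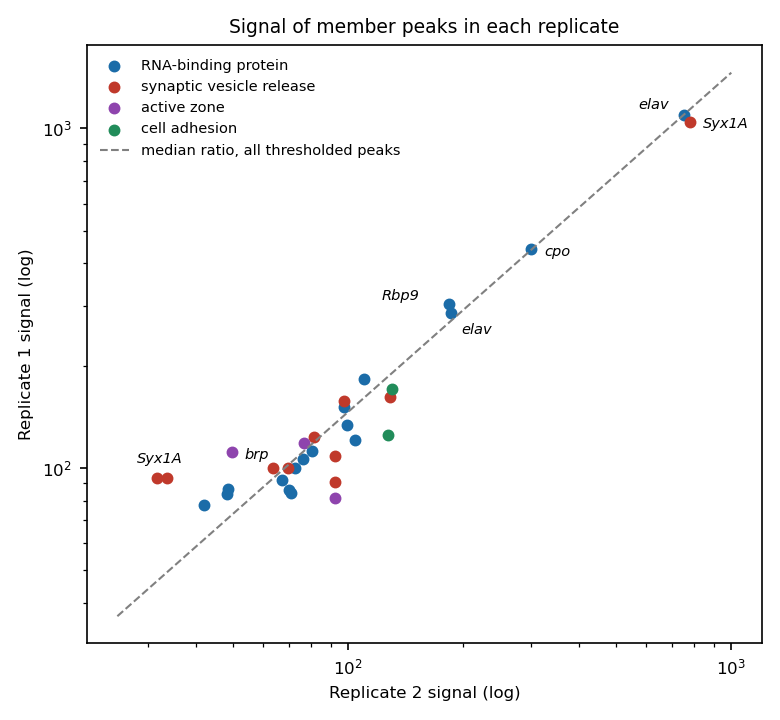
Signal of the overlapping peak in replicate 1 (y axis, log) and replicate 2 (x axis, log) for the 32 member summits, coloured by the gene's role. The dashed line has the median ratio of all thresholded peaks, 1.46. The 2 highest points, at elav and upstream of Syx1A, lie near it, while the 2 summits in the 5' UTR of Syx1A lie above it at 93.3 in replicate 1 and 31.8 and 33.6 in replicate 2.

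In wider lists of neuronal genes the share with a promoter summit varied by role, and the lists differ in gene length, whose part was not tested. Of 163 other neuronal genes, 71 (43.6%) had a promoter summit, and they are long genes too, with a median of 23927 bp. For these lists the distances of the summits to TSSs of other genes are not given. The share was highest among other neuronal RNA-binding proteins, with 10 of 14 (median length 102453 bp), led by msi (signal 1374), mbl (768) and shep (568), and among genes for axon guidance and adhesion, with 21 of 30 (36465 bp), led by trio (453), Nrt (353) and the netrin receptor gene unc-5 (337). It was lowest for transmitter receptors, with 3 of 19 (16435 bp), which were Nmdar1 (159), nAChRalpha5 (137) and nAChRbeta1 (135), and for transmitter synthesis and transport, with 3 of 15 (6672 bp), which were Tbh (272), Ddc (175) and Trhn (157). Among the members, 3 of 4 RNA-binding protein genes and 1 of 3 vesicle release genes had promoter summits, against 33.1% of all coding genes and 49.8% of those of 20 kb or more. With 3 or 4 genes a class, no difference by role can be read from these counts.

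The remaining lists lay between. Genes of vesicle fusion had 8 of 20, led by the SNARE gene Syx4 (771), comt, which encodes NSF (241), and Sytbeta (237). Endocytosis genes had 4 of 9, led by AP-2alpha (308), stnB (224) and EndoA (204). Active zone and synaptic adhesion genes had 6 of 13, with Nrx-1, the neurexin gene, at 766, Spn at 456 and dlg1 at 427. Axonal transport and cytoskeleton genes had 5 of 11, with the dynein heavy chain gene Dhc64C at 575, Klc at 253 and milt at 240. Ion channel genes had 5 of 16, with sei at 440, Hk at 192 and Shab at 177. Neuronal transcription factor genes had 6 of 17, with Hr51 at 549, lola at 397 and jim at 243. Glial genes had 5 of 13, with moody at 1236, Gs2 at 693 and loco at 242. Of the other neuronal genes, those with most summits in the gene or within 5 kb were Ptp10D (13), lola (11) and pum (11), against 8 at cpo.

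**Figure D4:**
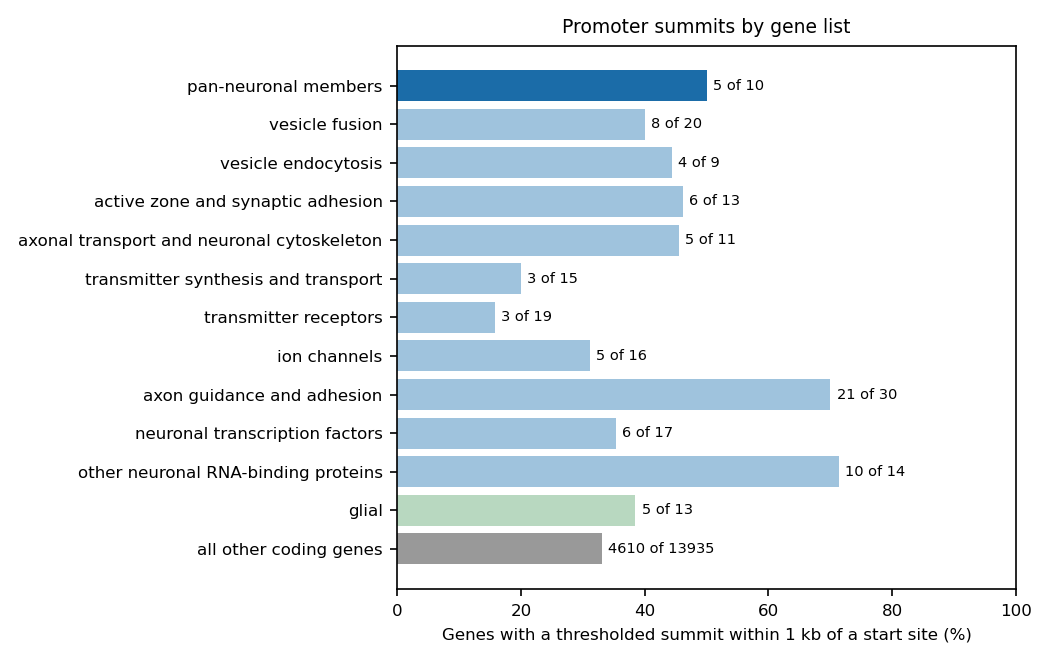
Share of genes with a promoter summit in the thresholded list, at most 1 kb from a TSS (x axis, %), for the 10 pan-neuronal genes at the top, 10 further neuronal lists, glial genes and all other coding genes at the bottom. The counts stand beside the bars. The longest bars are other RNA-binding proteins (10 of 14) and axon guidance and adhesion (21 of 30), and the shortest is transmitter receptors (3 of 19).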

How the data were processed

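The input was 4 dm6 peak lists deposited by the authors: a thresholded and a pooled list of both replicates, and 1 list per replicate, the last 3 with 30000 peaks each. Per the file lists deposited with the samples, peaks were derived from dm6 alignments and a control file. No source used here names the aligner, the caller or the IDR threshold. The authors' signal value per peak has no stated unit and was compared within a list, or as ranks. Depth is not known from peak lists. The 7329 thresholded peaks are the pooled peaks with the highest signal. Lists on dm3 and the control library were not used.

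Genes came from Ensembl release 115, and 179 list symbols matched except 1, with 2 through synonyms and 2 names of 1 gene counted once. cac is in 2 lists and counts once in the total of other neuronal genes, which leaves out glial genes. Windows, overlap and motif counts used Python 3.11.15 with numpy 2.4.6 and pandas 2.3.3, and were tested on simulated data. A replicate's value is that of its highest overlapping peak. Motifs were searched within 50 bp of summits. No p-values are given, since the group has 2 replicates and no contrast. Genes named were the members, neighbours nearer to a summit, the 3 genes with the highest promoter signal in each list, and the 3 other neuronal genes with the most summits. CG10694 and gammaTub23C, whose starts lie near a summit but are not the nearest, were named after values were seen. Members and lists were chosen with earlier results of these data known. Alternatives were other windows, lists and overlap rules.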

Additional observations from a re-analysis of the deposited data

How the results depend on the processing

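Of 49 alternative values, 33 stayed within 1.5 times the reported count or density, or within the 95% exact (Clopper-Pearson) interval of the reported share, and 16 did not. That interval is wide with 32 summits, so a share can move by more than 1.5 times inside it. With the gene span alone, 5 members had a summit in place of 9, the total was 16 summits in place of 32 and the density 0.502 per 10 kb in place of 0.764. The genome density was 0.547 per 10 kb, so the members were above it with the flanks and below it without them. The share of all coding genes for the gene span alone is not given, so that count of 5 has no background beside it. The promoter count was 2 with a window of 200 bp (cpo and Fas2), where 23.3% of coding genes had one, and 8 with the pooled list, which adds nSyb, Syt1 and brp and in which 54.4% of coding genes had one. The total was 126 summits (3.01 per 10 kb) with the pooled list, 17 (0.406) in the 3664 highest thresholded peaks and 20 (0.477) among peaks matched in both replicates. The same 5 genes had promoter summits in the last 2 lists, against 19.1% of coding genes with the 3664 highest peaks and 20.5% with the matched peaks. Without replicate 1 (the top 7329 peaks of replicate 2), Syt1 joined them, and 33.6% of coding genes had a promoter summit. In that list onecut had a summit in its wider window, as did 59.5% of coding genes. Without replicate 2, the same 5 had a promoter summit, against 32.9% of coding genes. The share of member summits matched in both replicates was 87.5% with 1 bp of overlap, against 81.1% of all thresholded peaks, and 84.4% for summits within 100 bp. Other neuronal genes with a promoter summit numbered 125, 44 and 45 in the pooled list, the 3664 highest and the matched peaks. These lists differ in their number of peaks. The share of member summits with an E-box ranged from 18.8% with 25 bp to each side to 50% with 100 bp, and a longer window holds more sequence. The shares of all thresholded summits with those windows are not given. No paired analysis was possible because there is 1 group. With depth unknown, a gene without a thresholded summit is one where none was detectable under the authors' threshold.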
